A study of Mus musculus with 12 samples.

Results

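The Hedgehog pathway genes described here are 9 mouse genes taken by symbol from the deposited table, namely Ptch1, Smo, Gli1, Gli2, Gli3, Hhip, Gas1, Boc and Cdon. They are 9 of the 45808 genes in the table and 9 of the 14201 genes that were tested. They were picked as genes of 1 pathway, with earlier results of these data known. Hedgehog ligands are secreted proteins that pattern embryonic mesenchyme, limb and neural tube, and fibroblasts of the embryo respond to them. PTCH1 holds the membrane protein SMO inactive, and a ligand bound to PTCH1 releases SMO, which then acts through the primary cilium on the GLI transcription factors. GAS1, CDON and BOC are cell surface coreceptors that help PTCH1 bind ligand. HHIP is a membrane-bound decoy that binds ligand and limits signalling. Gli1, Ptch1 and Hhip are also known as genes whose transcription Hedgehog signalling raises.

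The study sequenced mRNA of mouse embryonic fibroblasts (MEFs) in 4 groups of 3 libraries. WT control MEFs (wild type, 37 °C) and WT heat shock MEFs (wild type, 20 min at 42 °C) were set beside KO control and KO heat shock MEFs, which lacked type 2 transglutaminase (TG2) and had the same treatments. Both genotypes were of the C57BL/6 strain, and the cells were passed in culture until they grew as immortal lines, so a difference between genotypes is also a difference between lines that became immortal separately, and these cannot be told apart. Whether the 3 libraries of a group were separate cultures is not given in the sources used here, so p-values here cover the spread between libraries and nothing more.

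The libraries held 15319300 to 27668395 reads in genes, and replicates correlated at r of 0.992 to 0.995 on the log2 scale across genes, which are not independent replicates. Values are read counts divided by 1 size factor per library, called signal here, and 1 read was worth 0.699 to 1.38 signal. Tgm2, the gene of TG2, had a mean signal of 1664 in WT control, 1999 in WT heat shock, 1095 in KO control and 889 in KO heat shock MEFs. The deleted part of the gene is not given in the sources used here, and a count over the whole gene does not separate its exons. Of 10 fibroblast markers 9 were tested, and in KO control against WT control MEFs 4 were higher and 4 lower. Mean signals in WT control and KO control MEFs were 98358 and 12738 for Col1a1, 9001 and 3034 for Pdgfra, 35200 and 71627 for Vim and 517 and 8249 for Thy1, whereas Lum did not exceed 7.82 in any group. Their sum was 176536 to 198783 in WT control and 137001 to 151247 in KO control libraries, and 286865 to 314941 and 178207 to 201651 after heat shock. Among markers of other cell types, 5 leukocyte markers summed to 4153 to 5620 in WT and 89.3 to 147 in KO libraries, nearly all of the WT sum being Csf1r, while Ptprc was at or near 0 and Adgre1 and Cd3e had no read. The 4 skeletal muscle markers summed to 14.4 to 64.2 in WT and 203 to 278 in KO libraries, mostly Des in KO, and the 6 cartilage and bone markers to 2104 to 2863 in WT and 1093 to 1282 in KO, mostly Sox9. The 4 endothelium markers summed to 21.7 to 29.6 in WT and 4.52 to 16.7 in KO libraries, and the 5 epithelium markers to at most 22.0. Of the endothelium markers, Kdr had a mean signal of 25.1 in WT control and 0.353 in KO control MEFs. Pecam1, at 1.20 and 4.94, and Cdh5, at 0 and 4.03, went the other way. The 4 neural markers summed to 1512 to 1896 in WT and 888 to 1157 in KO libraries. Map2 had a mean signal of 516 in WT control and 0 in KO control MEFs, while Tubb3 was at 1047 and 1022 and was not called. Sox2 was at 0 in both control groups. The 4 adipocyte markers summed to 8.70 to 18.8 in WT and 34.1 to 49.8 in KO libraries, mostly Pparg in KO. Pparg had a mean signal of 0.714 in WT control and 32.9 in KO control MEFs. Fabp4, at 13.2 and 6.35, went the other way and was called lower, and Adipoq and Plin1 were near 0. The fibroblast, endothelium, leukocyte, muscle, cartilage and bone, neural and adipocyte sums thus did not overlap between genotypes within a treatment, and their part in the results below was not tested. In bulk RNA, fewer cells that express a gene and less RNA of it per cell cannot be told apart.

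The largest differences between the genotypes among the 9 genes were in Hhip, Boc, Gas1 and Cdon, which encode cell surface proteins. Ptch1 and Smo, which also encode membrane proteins, were not called. In KO control against WT control MEFs, 5 of the 9 genes were called, which means a limma adjusted p up to 0.05 together with a fold of 1.5 or more. Hhip, Gas1 and Gli1 were higher in KO MEFs, Cdon and Boc were lower, and Gli2 and Gli3 were not called either. The same 5 genes were called, in the same directions, in KO heat shock against WT heat shock MEFs. Differences between the genotypes were common in the whole table: 48.8% of all tested genes were called in control MEFs (22.9% higher, 25.8% lower) and 48.7% after heat shock (23.2% higher, 25.5% lower). Quantile normalization turned the balance of those calls, to 4074 genes higher and 3170 lower in control MEFs, in place of 3255 and 3669, and to 3996 and 3150 after heat shock, in place of 3288 and 3622. A share of 5 in 9 is therefore close to the background. At any fold, 7 of the 9 genes passed the adjusted p in each comparison, against 76% of all tested genes in control MEFs and 76% after heat shock. The libraries of the genotypes did not overlap for 7 of the 9 genes in control MEFs (76.4% of all tested genes) and for 6 of 9 after heat shock (78.4%). The median log2 fold change over the 9 genes was 0.06 in control and 0.11 in heat-shocked MEFs, beside -0.04 and -0.03 over all tested genes.

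**Figure D1:**
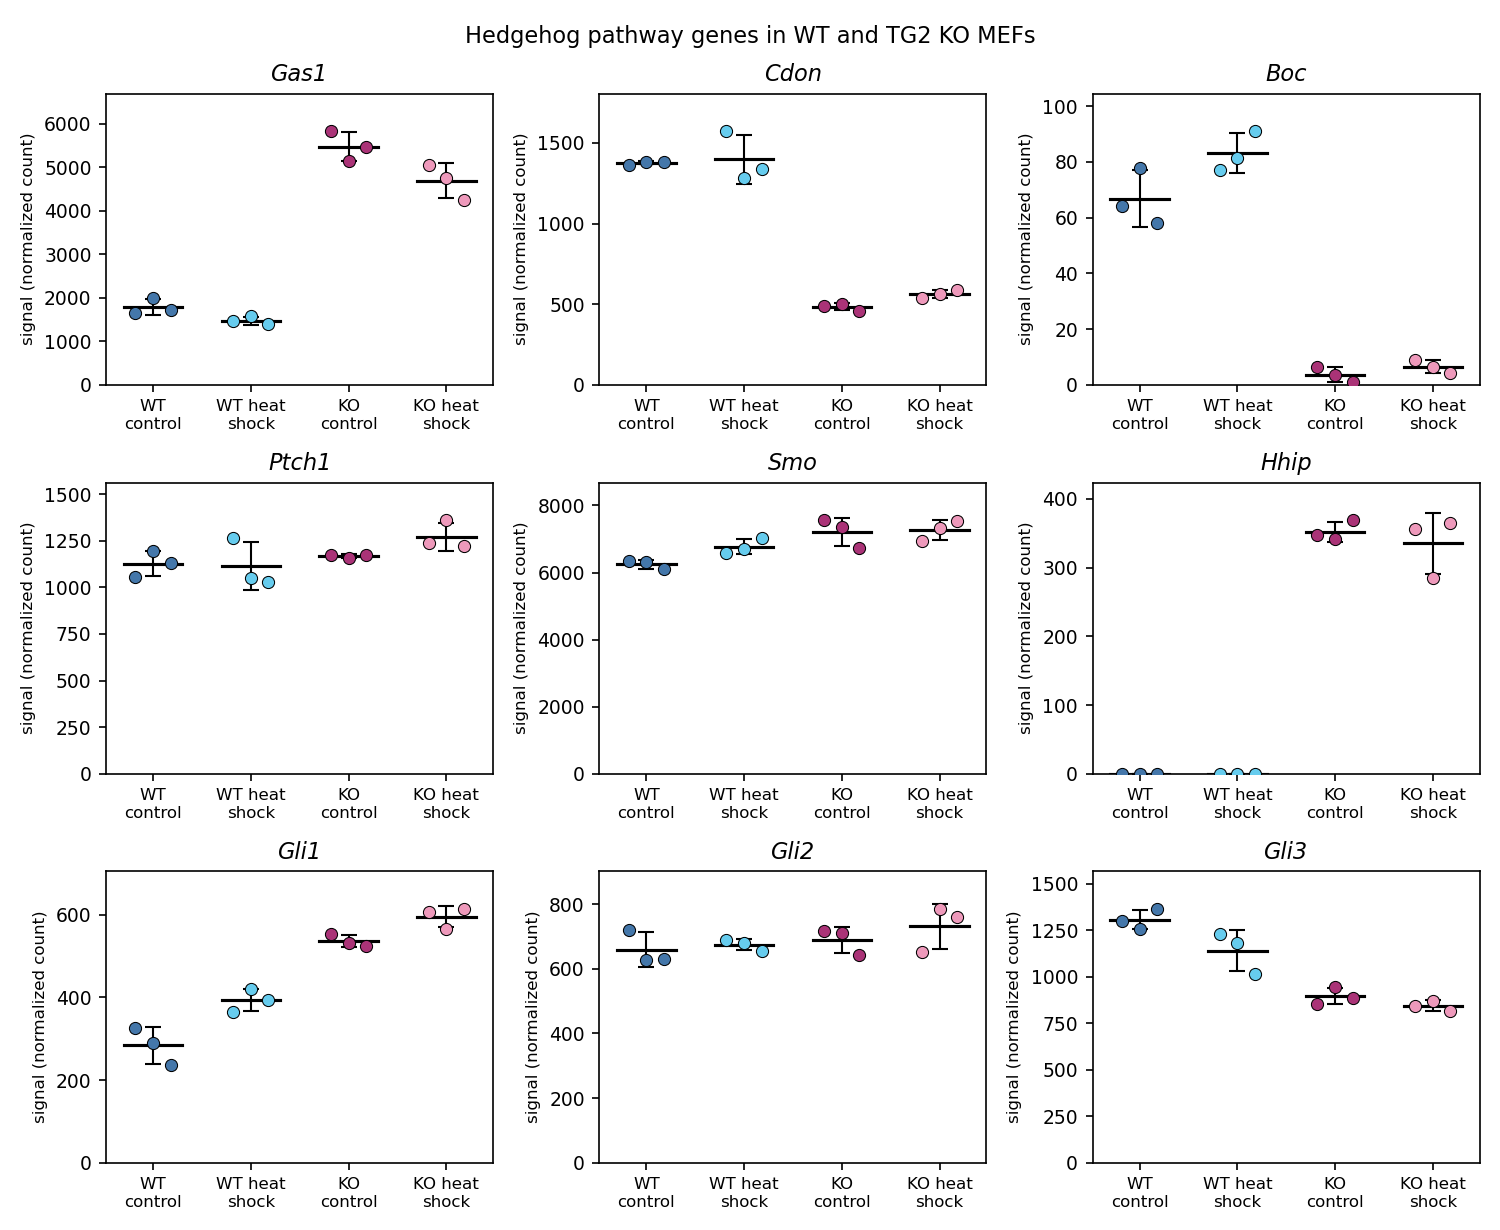
Signal (normalized count, linear axis from 0) of the 9 Hedgehog pathway genes in each library, 1 panel a gene. Points are libraries, lines are group means and bars are ± 1 SD (n = 3); Gas1, Hhip and Gli1 lie higher in every KO library than in every WT library, Cdon, Boc and Gli3 lie lower, and Hhip is at 0 in all 6 WT libraries.

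Among the coreceptors, Gas1 encodes a surface protein held by a lipid anchor, which was first known for its rise in growth-arrested fibroblasts. It lies at 13:60174405-60177365 on the minus strand (GRCm38). Its signal was 1656, 1998 and 1729 in the WT control libraries and 5822, 5140 and 5465 in the KO control libraries. After heat shock it was 1455, 1571 and 1389 in WT and 5056, 4763 and 4255 in KO MEFs. Every KO library thus lay at or above 4255 and every WT library at or below 1998, with no overlap under either treatment. Gas1 was higher in KO MEFs by 1.61 on the log2 scale in control (SE 0.08, limma adjusted p = 1.28e-10) and by 1.67 after heat shock (SE 0.08, adjusted p = 8.32e-11).

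Cdon and Boc are related immunoglobulin-family transmembrane coreceptors, and both differed in the opposite direction to Gas1. Cdon (9:35421128-35507652, plus strand) had a signal of 1365, 1383 and 1380 in WT control and 490, 503 and 460 in KO control libraries. The corresponding heat shock values were 1571, 1282 and 1339 in WT and 537, 565 and 585 in KO libraries. No KO library exceeded a signal of 585, and no WT library fell below 1282. Cdon was lower in KO control MEFs (log2 fold change -1.51, SE 0.07, limma adjusted p = 9.46e-11) and in KO heat shock MEFs (-1.31, SE 0.07, adjusted p = 4.71e-10).

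Boc (16:44485049-44558897, minus strand) was the coreceptor with the fewest reads. Its signal was 64.3, 78.0 and 58.0 in WT control libraries and 6.36, 3.33 and 1.13 in KO control libraries. After heat shock it was 77.0, 81.6 and 90.9 in WT and 9.04, 6.22 and 4.19 in KO libraries. The KO values rest on 11 reads in the control group and 18 in the heat shock group, against 253 and 219 in WT. From these reads Boc was 18.4-fold lower in KO control (95% interval 10.1 to 37.4) and 12.8-fold lower in KO heat shock MEFs (7.93 to 22.1), intervals that cover counting error only. The fitted log2 changes were -4.04 (limma adjusted p = 1.09e-07) and -3.54 (adjusted p = 4.75e-07). Since no KO library exceeded 9.04, Boc passed the filter for testing through WT libraries alone, and these p-values add little to the reads.

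**Figure D2:**
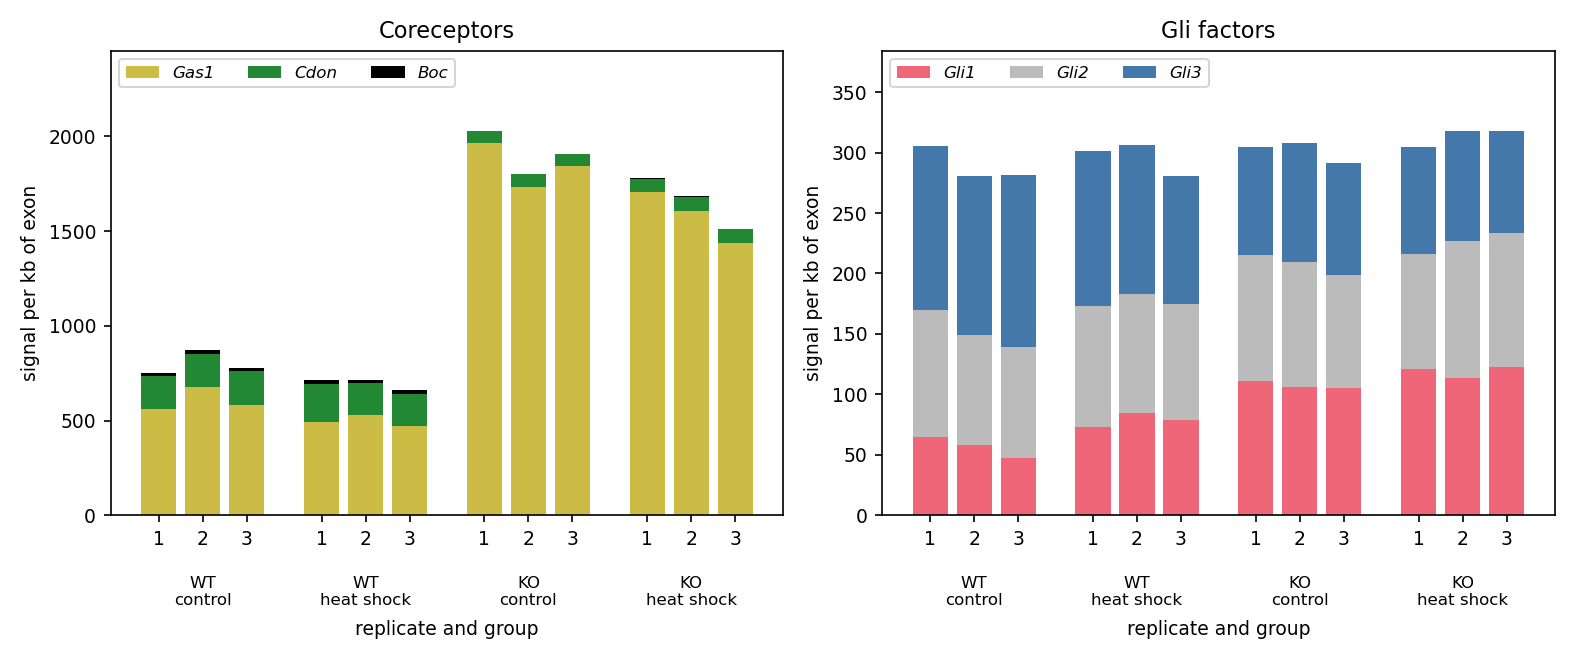
Signal per kb of exon, stacked over the 3 coreceptors (left) and the 3 Gli factors (right), 1 bar a library, replicates 1 to 3 in each group. The coreceptor bars are taller in all 6 KO libraries and almost wholly Gas1, while the Gli bars keep a like height as their Gli1 part grows and their Gli3 part shrinks.

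Divided by exon length, the 3 coreceptors could be compared with each other. In WT control MEFs Gas1 took 75.7% ± 1.51 of the summed coreceptor level per kb, Cdon 22.4% ± 1.60 and Boc 1.87% ± 0.172 (SD, n = 3). In KO control MEFs the shares were 96.7% ± 0.283, 3.29% ± 0.282 and 0.0417% ± 0.0285. The summed level was 799 ± 63.9 signal per kb in WT control and 1913 ± 115 in KO control MEFs. After heat shock it was 697 ± 29.3 in WT and 1659 ± 134 in KO MEFs, with Gas1 at 71.3% and 95.5%. Coreceptor RNA was thus more abundant in sum in KO MEFs. It came mostly from Gas1 in both genotypes, with a larger share in KO MEFs, as the stacked plot of coreceptors shows.

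Hhip, the ligand decoy, was read in KO libraries only. It lies at 8:79965851-80058006 on the minus strand. None of the 6 WT libraries held a read of it. Its signal was 347, 341 and 369 in KO control libraries and 356, 284 and 365 in KO heat shock libraries, from 1063 and 938 reads in the groups. Against a floor of 3 reads over the WT group, Hhip was at least 442-fold higher in KO control and at least 296-fold higher in KO heat shock MEFs. The fitted log2 changes were 8.46 (limma adjusted p = 1.82e-14) and 8.38 (adjusted p = 1.95e-14), and since WT was at 0 their size depends on the value of 1 that was added before taking logs. They are therefore no measure of the fold. Hhip also passed the filter for testing through KO libraries alone, so its p-values add little to the reads.

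The promoters of Hhip, Gas1 and Ptch1 are shown. These are a gene with reads in 1 genotype only, a coreceptor that was higher in KO MEFs and a target gene with no call. No promoter of a gene called lower is shown. RefSeq sequences (GRCm38.p6) from 250 bases before to 50 bases after the RefSeq start were matched for 7 of the 9 genes. For Ptch1 and Cdon that start is another one than the gene start printed here from GENCODE, lying 7.86 kb and 30.9 kb inside the gene. For Gli3 it lies 488 bases inside the gene, and for Gas1 at -170 bases, which is before the gene. The Gas1 window thus holds no base of Gas1 as placed here. CpG dinucleotides, the sites that DNA methylation uses in mammals, are in capitals. The windows are chr8:80057959-80058258 for Hhip, chr13:60177486-60177785 for Gas1 and chr13:63565686-63565985 for Ptch1, all read 5′ to 3′ on the minus strand.
Hhip: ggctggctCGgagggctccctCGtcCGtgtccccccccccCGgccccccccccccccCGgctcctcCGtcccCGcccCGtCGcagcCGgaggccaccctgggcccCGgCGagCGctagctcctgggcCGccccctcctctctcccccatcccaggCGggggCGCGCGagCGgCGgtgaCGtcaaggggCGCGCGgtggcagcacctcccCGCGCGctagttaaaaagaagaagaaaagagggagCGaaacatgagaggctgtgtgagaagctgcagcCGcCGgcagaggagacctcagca
Gas1: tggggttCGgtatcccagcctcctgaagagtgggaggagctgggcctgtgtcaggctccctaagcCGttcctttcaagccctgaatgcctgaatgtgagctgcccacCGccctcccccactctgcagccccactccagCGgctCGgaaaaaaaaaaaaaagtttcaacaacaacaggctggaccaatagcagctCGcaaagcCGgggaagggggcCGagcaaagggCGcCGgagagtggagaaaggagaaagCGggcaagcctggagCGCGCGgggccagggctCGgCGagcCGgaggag
Ptch1: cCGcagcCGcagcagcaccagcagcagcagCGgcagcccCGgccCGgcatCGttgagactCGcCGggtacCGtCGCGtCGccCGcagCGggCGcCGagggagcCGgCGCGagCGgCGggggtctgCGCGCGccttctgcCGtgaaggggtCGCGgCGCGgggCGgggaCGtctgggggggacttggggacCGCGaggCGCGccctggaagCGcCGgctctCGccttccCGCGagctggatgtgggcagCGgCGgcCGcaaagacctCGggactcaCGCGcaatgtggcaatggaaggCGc

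The Hhip window holds 30 CpG dinucleotides, more than 88.3% of the 32851 promoters of that length in the table, whose median is 7. The Gas1 window holds 17, more than 68.6% of promoters, and the Ptch1 window 47, more than 98.6%. Of the other matched genes, Gli3 has 39, Gli2 28, Smo 17 and Cdon 3. No methylation was measured in these samples. The GLI binding motif GACCACCCA, searched on both strands, was in 0.253% of all promoters and in 0 of the 7 matched windows, which says only that these letters are not in these windows. Its own letters hold no CpG.

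Ptch1, the ligand receptor and itself a gene that Hedgehog signalling raises, did not change with genotype by the call. It lies at 13:63508328-63573598 on the minus strand. The signal was 1058, 1193 and 1133 in WT control and 1175, 1155 and 1174 in KO control libraries. In heat-shocked MEFs it was 1263, 1053 and 1029 in WT and 1235, 1359 and 1222 in KO libraries. The genotypes overlapped under both treatments. The log2 fold change was 0.05 in control MEFs (95% interval -0.11 to 0.22, limma adjusted p = 0.550) and 0.19 after heat shock (0.03 to 0.36, adjusted p = 0.0326), so that neither interval reaches the called fold.

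Smo, which encodes the signal transducer, lies at 6:29735503-29761365 on the plus strand and had the highest level per kb of the 9 genes in WT MEFs. Its signal was 6332, 6300 and 6094 in WT control and 7551, 7344 and 6741 in KO control libraries, which did not overlap. After heat shock it was 6589, 6693 and 7029 in WT and 6929, 7328 and 7536 in KO libraries, which did. The difference was small in both, with a log2 fold change of 0.21 in control (95% interval 0.09 to 0.32, limma adjusted p = 0.00289) and 0.10 after heat shock (-0.01 to 0.22, adjusted p = 0.101). Neither was called.

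The 3 Gli genes encode the transcription factors at the end of the pathway. GLI1 is an activator only, whereas GLI2 and GLI3 can be processed into repressors, GLI3 being the main repressor in limb mesenchyme. Gli1 lies at 10:127329882-127341974 on the minus strand. Its signal was 325, 290 and 236 in WT control and 554, 530 and 525 in KO control libraries. After heat shock it was 365, 421 and 394 in WT and 606, 565 and 612 in KO libraries. All KO libraries lay above all WT libraries. Gli1 was higher by 0.93 on the log2 scale in KO control MEFs (SE 0.10, limma adjusted p = 9.02e-07) and by 0.60 in KO heat shock MEFs (SE 0.10, adjusted p = 8.58e-05). The second of these folds, 1.51, lay just above the fold needed for a call, and leaving out WT heat shock replicate 1 (0.54), KO heat shock replicate 1 (0.58) or KO heat shock replicate 3 (0.57) ended the call.

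Gli3 (13:15463235-15730026, plus strand) differed the other way, without reaching the fold needed for a call. Its signal was 1300, 1260 and 1362 in WT control and 856, 943 and 889 in KO control libraries, and 1229, 1181 and 1015 in WT and 846, 872 and 815 in KO libraries after heat shock. Each KO library was below each WT library. The log2 fold change was -0.55 in control (fold 1.46, limma adjusted p = 6.51e-06) and -0.43 after heat shock (fold 1.35, adjusted p = 6.93e-05). Gli2 (1:118834132-119053619, minus strand) had a signal of 721, 627 and 630 in WT control, 716, 709 and 641 in KO control, 688, 679 and 656 in WT heat shock and 652, 783 and 760 in KO heat shock libraries. Its genotypes overlapped under both treatments, with log2 fold changes of 0.06 (95% interval -0.11 to 0.24) and 0.11 (-0.06 to 0.29).

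Per kb of exon, the summed level of the 3 Gli genes was 289 ± 14.2 in WT control and 301 ± 8.81 in KO control MEFs (SD, n = 3). Within that sum, Gli1 took 19.6% ± 2.42 in WT control and 35.7% ± 1.03 in KO control MEFs, and Gli3 47.2% ± 3.10 and 31.0% ± 1.49. Gli2 stayed at 33.2% and 33.3%. After heat shock Gli1 took 26.6% in WT and 38.0% in KO MEFs, and Gli3 40.2% and 28.1%. These are shares of RNA, and the processed forms of the GLI proteins were not measured by this assay.

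Exons of 4 of the genes overlap annotated transcripts on the other strand, and the sources used here do not say how strand was handled in counting. Gli1 overlaps Arhgap9, whose signal did not exceed 12.4, Gli3 overlaps Gm6556, at most 27.1, and Hhip overlaps Gm27820, at 0 in every library. The transcripts Gm48488 at Gas1 and Gm47200 at Gli1 were not analysed here.

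**Figure D3:**
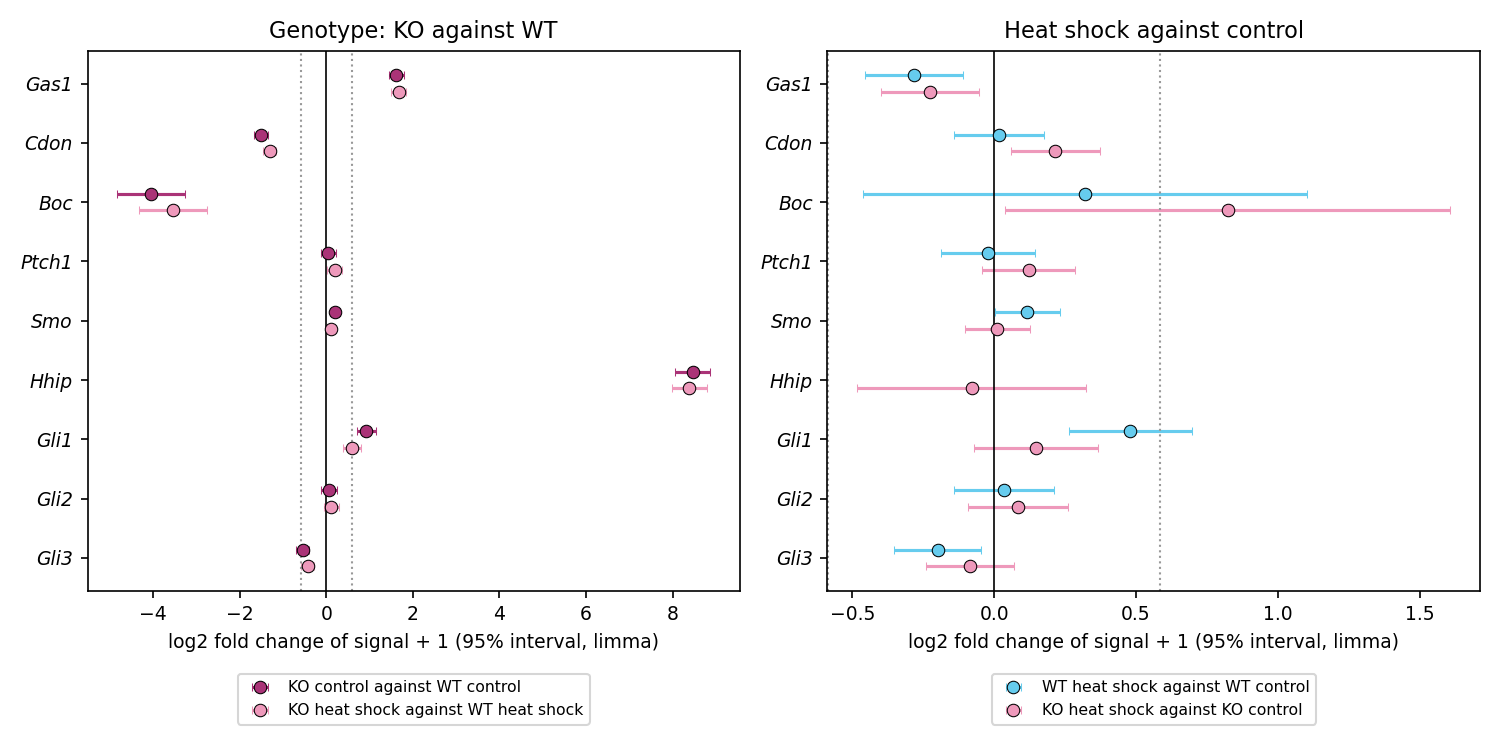
Log2 fold change of signal plus 1 with its 95% interval (limma, 3 libraries a group) for the 9 genes, KO against WT on the left and heat shock against control on the right, with dotted lines at a fold of 1.5. Hhip (8.46 and 8.38), Gas1, Gli1, Cdon and Boc lie past the lines on the left under both treatments, and only the intervals of Gli1 in WT and of Boc cross the upper line on the right; Hhip has no value for WT, where it had no read.

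No Hedgehog pathway gene among the 9 was called for heat shock in either genotype. In WT MEFs the count was 0 of 9, beside 3.68% of all tested genes (1.66% higher, 2.02% lower), and scaling by library totals gave 187 genes higher and 507 lower in place of 236 and 287. By limma, 2 of the 9 passed the adjusted p at any fold (28.8% of all tested genes did). By limma 4 of the 9 had an unadjusted p under 0.05, beside 5789 of the 14201 tested genes. For the 9 genes edgeR and DESeq2 also gave a count of 4. The libraries of the treatments did not overlap for 4 of the 9 genes, beside 42.4% of all tested genes. Gli1, at 236 to 325 in WT control and 365 to 421 in WT heat shock libraries, had a log2 fold change of 0.48 (SE 0.10, limma adjusted p = 0.00429, fold 1.40). Gas1, at 1656 to 1998 and 1389 to 1571, had one of -0.28 (SE 0.08, adjusted p = 0.0189, fold 1.22). Both sets of libraries were apart, but neither difference reached the fold for a call. By limma, Gli3 (-0.20, adjusted p = 0.0505), Smo (0.12, 0.118) and Boc (0.32, 0.548) missed the adjusted p, and the values for Gli2, Cdon and Ptch1 lay between -0.02 and 0.04. Gli3 passed it by edgeR (adjusted p = 0.0478), without the fold for a call, and missed it by DESeq2 (adjusted p = 0.0525).

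In KO MEFs the count was also 0 of 9, beside 0.887% of all tested genes (0.577% higher, 0.31% lower), and library totals gave 68 higher and 76 lower in place of 82 and 44. None passed the adjusted p at any fold, where 2.6% of all tested genes did. An unadjusted p under 0.05 was found for 3 of the 9 genes by limma, beside 2375 of the 14201 tested genes. By edgeR and by DESeq2 it was found for 2 of the 9. The treatments did not overlap for 4 of the 9 genes, beside 21.6% of all tested genes. The lowest p by limma was that of Cdon, at 460 to 503 in KO control and 537 to 585 in KO heat shock libraries (log2 fold change 0.22, limma adjusted p = 0.147). By the other tools it was that of Gas1 (edgeR unadjusted p = 0.00572, DESeq2 unadjusted p = 0.00721). Gas1 had a log2 fold change of -0.22 (adjusted p = 0.169), close to its value in WT MEFs. Gli1 was at 525 to 554 in KO control and 565 to 612 in KO heat shock libraries (0.15, adjusted p = 0.512), and Hhip at 341 to 369 and 284 to 365 (-0.08, adjusted p = 0.908). Boc had the largest fitted value, 0.82, from 11 and 18 reads (adjusted p = 0.273).

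The response of KO MEFs was also set against that of WT MEFs in 1 term. None of the 9 genes was called, as for 0% of all tested genes by limma, of which 2532 had an unadjusted p under 0.05, while edgeR called 10 genes and DESeq2 35, none of them among the 9. For Gli1 the response in KO minus that in WT was -0.33 on the log2 scale (95% interval -0.64 to -0.02, unadjusted p = 0.0362, limma adjusted p = 0.25), and it was the only 1 of the 9 with an unadjusted p under 0.05 by each of the 3 tools. The difference of responses was 0.20 for Cdon (-0.02 to 0.42, adjusted p = 0.327) and 0.14 for Ptch1 (-0.09 to 0.38, adjusted p = 0.498). No value can be given for Hhip, since WT MEFs had no read of it.

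The order of the levels per kb of exon differed between the lines. In WT control MEFs Smo stood first at 1111 signal per kb, followed by Gas1 (606), Cdon (178), Gli3 (136), Gli2 (96.0), Ptch1 (79.5), Gli1 (56.8), Boc (15.0) and Hhip (0). No 2 neighbours in that order had overlapping libraries. In KO control MEFs Gas1 stood first at 1849 signal per kb, ahead of Smo (1283), Gli1 (107), Gli2 (100.3), Gli3 (93.4), Ptch1 (82.3), Cdon (62.8), Hhip (38.8) and Boc (0.810). There only Gli2 and Gli3 overlapped. Cdon went from the third place to the seventh and Gli1 from the seventh to the third. After heat shock the order per kb in WT MEFs differed only in Gli1 (78.8) and Ptch1 (78.6), which overlapped. In KO heat shock MEFs Ptch1 (89.7) stood next to Gli3 (88.1), and neighbours from Gli1 to Gli3 overlapped with each other.

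Other genes of the pathway were counted in 5 lists. Beside each list, 22.9% of all tested genes were called higher and 25.8% lower in KO control against WT control MEFs. After heat shock these shares were 23.2% and 25.5%. Of 8 genes for ligands and their release, only 3 were tested, and all 3 were lower in KO control and in KO heat shock MEFs (median log2 fold change -2.71 and -2.81, beside -0.04 and -0.03 over all tested genes). The ligand gene Shh had no read in any library, and Ihh and Dhh, the other ligand genes, had group means of at most 2.52 and 1.32 signal and were not tested. Hhat, the enzyme that adds palmitate to the ligands, had a mean signal of 148 in WT control and 21.8 in KO control MEFs (log2 fold change -2.71, limma adjusted p = 7.35e-08). Disp1, which releases the lipid-modified ligand from the cell, was at 916 and 516 (-0.83). Scube3, a member of the secreted SCUBE family that carries ligand, had 2579 reads in WT control and 2 in KO control MEFs, a ratio of 1033 (95% counting interval 286 to 8535).

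**Figure D4:**
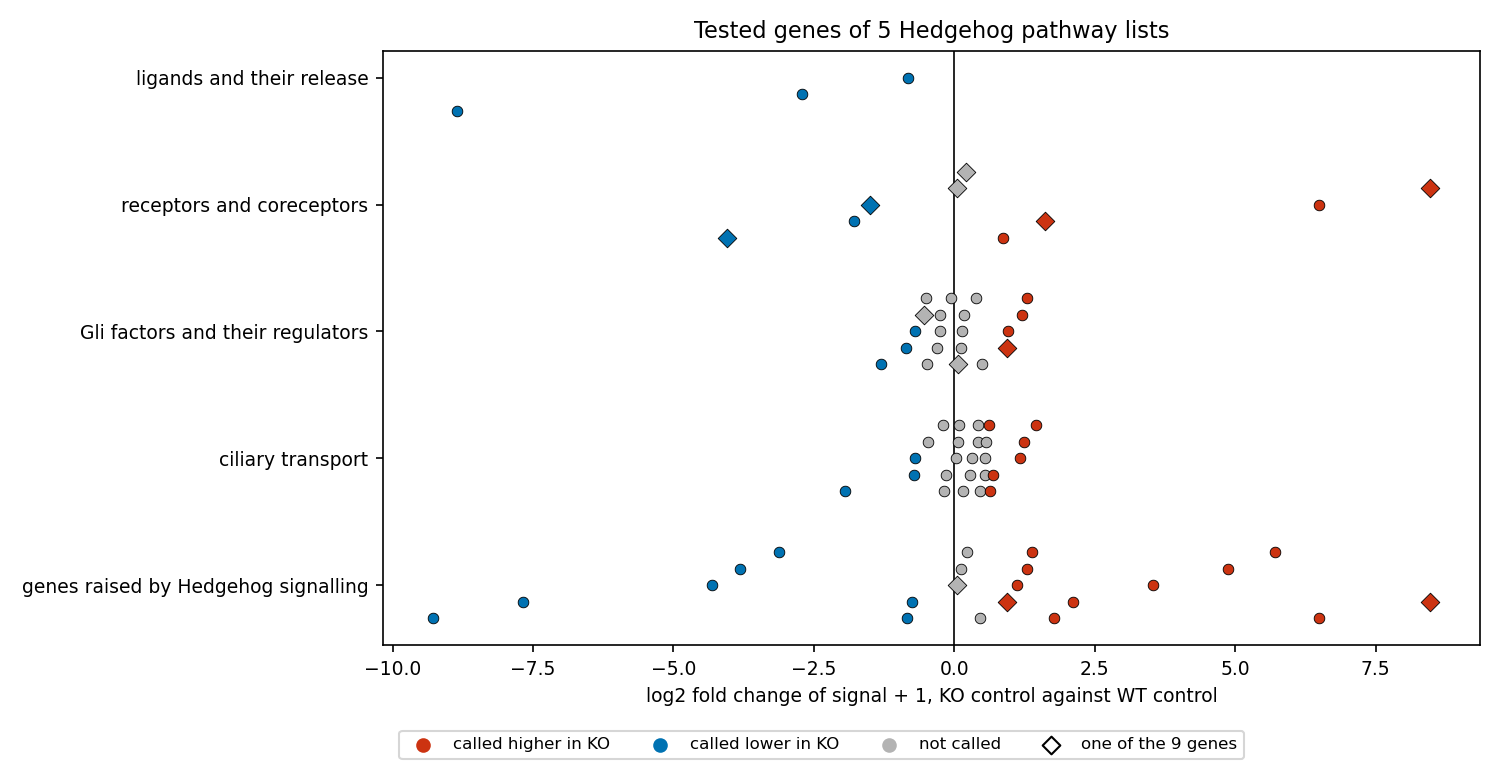
Log2 fold change of signal plus 1 in KO control against WT control MEFs for each tested gene of the 5 lists, with the call by colour and diamonds for the 9 genes. All 3 tested genes for ligands and their release lie left of 0, and the other lists hold genes called on both sides; a gene may be in 2 lists.

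Of 10 receptor and coreceptor genes, 9 were tested, and 4 were higher and 3 lower in KO control MEFs (median 0.21). Most of these are among the 9 genes described above, and without them 3 were tested, 2 higher and 1 lower. Lrp2, an endocytic receptor, was lower in KO control MEFs (-1.78) and Gpc6, a glypican, higher (0.86).

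Of 20 tested genes for Gli factors and their regulators, 4 were higher, 3 lower and 13 not called in KO control MEFs, with a median of -0.00. Without Gli1, Gli2 and Gli3, 3 were higher and 3 lower of 17. Tulp3 and Stk36 were higher, at 2272 and 5573 signal (log2 fold change 1.29) and at 120 and 277 signal (1.20) in WT control and KO control MEFs. TULP3 carries membrane proteins into the cilium, and GPR161, which it carries, restrains the pathway. Evc, a ciliary partner of SMO, was lower (-1.31), as was Gpr161 (-0.86). After heat shock the counts for KO against WT were again 4 higher and 3 lower (median 0.04). Of 25 tested genes for ciliary transport, 6 were higher and 3 lower in KO control MEFs (median 0.31) and 7 and 2 after heat shock (0.43). Arl13b, a ciliary GTPase, was higher (1.45), with Bbs2 of the BBSome (1.24). Cc2d2a, of the ciliary transition zone, was lower (-1.95), as was Bbs4 of the BBSome (-0.72).

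The list of genes that Hedgehog signalling is known to raise in one tissue or another held 22 tested genes. In KO control MEFs 11 were higher, 7 lower and 4 not called (median 0.69), beside 48.8% of all tested genes called either way. After heat shock 12 were higher and 6 lower (median 0.70), beside 48.7%. Without the 3 that are among the 9 genes, 9 were higher and 7 lower of 19. The list is thus split, with genes called in both directions. Sfrp1, a secreted Wnt antagonist, had 2349 reads in WT control and none in KO control MEFs (at least 627-fold lower), and Hand2, a limb and heart transcription factor, 767 and none (at least 205-fold lower). Foxf1 and Foxf2, 2 related targets in mesenchyme that were picked after their values were seen, differed in opposite directions, with a mean signal of 384 and 832 for Foxf1 (2.20-fold higher from the reads) and 1094 and 125 for Foxf2 (log2 fold change -3.13) in WT control and KO control MEFs. Ccnd1, picked in the same way, was not called (0.22).

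The genes whose pattern was nearest to each of the 9 were found as the root mean square difference of log2(signal + 1), centred on the gene's own mean, over the 12 libraries. Predicted genes and pseudogenes, as judged by name, were left out of the nearest genes named but kept in the counts and the rank. For Hhip only 3 of the tested genes lay within 0.25, and these were Tmem47 (0.149), Glt1d1 (0.156) and Pid1 (0.167). For Boc none lay within 0.25, and the nearest were Mboat2 (0.349), Cotl1 (0.378) and Sohlh2 (0.381). The nearest genes to Gas1 were Sntb2 (0.0933), Papd5 (0.112) and Cbfb (0.112), to Cdon Galnt11 (0.0742), Trafd1 (0.0816) and Pmp22 (0.0901), and to Gli1 Plekhh3 (0.0696), Vps72 (0.0739) and Pkmyt1 (0.0762). Those nearest to Gli3 were Dusp16 (0.0456), Prpf4 (0.0463) and Mpdz (0.0591). The flatter genes had many near neighbours, led by Zfp280b (0.0486), Gphn (0.0651) and Ptpn13 (0.0655) for Ptch1, by Pdia6 (0.0330), Pes1 (0.0374) and Eps15l1 (0.0388) for Smo, and by Dgcr2 (0.0508), Yipf2 (0.0516) and Ggcx (0.0571) for Gli2. Among the 9 genes themselves the closest were Smo and Gli2 (0.0827), while the one closest to Hhip was Gas1 at 3.40, at rank 1105 among all tested genes. The 12 libraries share their lines and size factors, and likeness in this measure is a description.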

How the data were processed

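The authors prepared stranded mRNA libraries, trimmed reads with cutadapt 1.10, aligned them with STAR 2.5.2, counted them per gene with HTSeq-count and normalized the counts with DESeq2. The submitters' notes name the mm9 build and the study's methods GRCm38, and positions here come from GENCODE M21 on GRCm38. The deposited signal is a count divided by 1 size factor per library. Of all values, 100% were whole reads within 0.01 read, so reads were recovered for count tests.

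Genes reaching a signal of 10 in 3 or more libraries (14201) were fitted on log2(signal + 1) with limma 3.58.1 (R 4.3.3, eBayes with a trend), 1 mean per group over all 12 libraries and no block. P-values were Benjamini-Hochberg adjusted over all of them, and a gene was called at 0.05 and a fold of 1.5. On the recovered reads edgeR 4.0.16 called 6980 genes and DESeq2 1.42.0 called 6834 in KO control against WT control, where limma called 6924. The scripts were tested on simulated data. Levels per kb use the length of the merged exons.

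The 9 genes, the lists and the tests were chosen with earlier results of these data known. Named were the 9 genes, called ligand and receptor genes, and in the other lists the 2 called genes with the largest change each way between the control groups, if the higher mean was 100 or more. The 3 nearest genes by pattern were also named, with exceptions said to be so, and a gene picked by this rule is not reported here. Intervals and floors cover counting error only.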

Additional observations from a re-analysis of the deposited data

How the results depend on the processing

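The counts of the 9 genes called (5, 5, 0, 0 and 0 over the comparisons) kept their value under other pseudocounts and filters, quantile normalization, library totals, fits on 2 groups, a replicate block, edgeR and DESeq2. With each library left out they were the same, except that KO heat shock against WT heat shock gave 4 without WT heat shock replicate 1, KO heat shock replicate 1 or KO heat shock replicate 3, where Gli1 lost its call. The numbers 1 to 3 were not taken to pair libraries. Of 18 correlations of same-numbered libraries, 2 were above 0.1 (-0.0710 to 0.205). Differently numbered libraries were not correlated for comparison, so these values cannot decide whether the libraries were paired. The replicate block left the counts at 5, 5, 0, 0 and 0. Quantile normalization moved the median of all genes in KO control against WT control from -0.04 to 0.09. It also ended the calls of Bbs4 in KO control (-0.39, adjusted p = 0.0181) and of Lrp2 in KO heat shock against WT heat shock (-0.61, adjusted p = 0.0607) by limma.

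Values near 0 changed sign, none of them called. With quantile normalization these were Ptch1 for heat shock in WT (0.011), Smo for heat shock in KO (-0.056) and Gas1 for the difference of responses (-0.00063). With library totals they were Gli2 (-0.048) and Cdon (-0.067) for heat shock in WT and Smo (-0.056) for heat shock in KO. With each library left out, the values for heat shock in WT ran from -0.114 to 0.0338 for Ptch1 and from -0.0706 to 0.0757 for Cdon. For heat shock in KO they ran from -0.0366 to 0.0452 for Smo and from -0.146 to 0.0348 for Hhip, and for the difference of responses from -0.0165 to 0.130 for Gli2 and from -0.0217 to 0.127 for Gas1. The cause was not tested. Depth limits Boc in KO MEFs, with 11 and 18 reads.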

Other observations

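Genes on either side of Hhip were looked at after its values were seen. Toward lower coordinates, Anapc10 lies 187 kb away and had a mean signal of 352 in WT control and 313 in KO control MEFs (log2 fold change -0.17, limma adjusted p = 0.204). Abce1, at 254 kb, was at 6620 and 5794 (-0.17, adjusted p = 0.199). Otud4, at 288 kb, had a log2 fold change of 0.36 (adjusted p = 2.00e-04) and Smad1, at 566 kb, of 0.06 (adjusted p = 0.487), and neither was called. Toward higher coordinates, Frem3, at 553 kb, had no read in any library, and Smarca5, beyond it, was not called (-0.27). Gab1, at 706 kb, was called lower in KO control MEFs, with a mean signal of 763 in WT and 439 in KO (-0.80, adjusted p = 1.26e-08). Of these named neighbours, none was read in 1 genotype only, as Hhip was.

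Other genes of the list raised by Hedgehog signalling, also picked after their values were seen, had few reads in WT or a large difference. Mycn, a growth-promoting transcription factor, had 2 reads in WT control and 124 in KO control MEFs, a ratio of 77.4 (95% counting interval 21.0 to 646). Igf2, a growth factor, had 12 and 644 reads, a ratio of 67.0 (38.1 to 130.3). Osr1, a transcription factor of embryonic mesenchyme, had a mean signal of 226 in WT control and 2623 in KO control MEFs, a log2 fold change of 3.53 in control and 3.30 after heat shock, both called higher. In the other direction, Nkx3-2 had 88 reads in WT control and 1 in KO control MEFs (log2 fold change -4.31). Bmp4 had 540 and 28 reads (-3.82), and both were called lower. Of the whole list, 11 tested genes were called higher and 7 lower in KO control MEFs.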
